A study of Homo sapiens with 18 samples.

Results

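The nuclear-encoded respiratory chain subunits are the genes whose symbols begin with NDUFA, NDUFB, NDUFC, NDUFS or NDUFV and a number (complex I), UQCR (complex III), COX4 to COX8 (complex IV) or ATP5 (complex V, the ATP synthase), with pseudogenes and hyphenated read-through or antisense symbols left out. The rule found 90 symbols and kept 84 genes of the 28063 in the files: 38 of complex I, 9 of complex III, 17 of complex IV and 20 of complex V. The rule uses names alone and no measured value, though it was set with earlier results of these data known.

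The inner mitochondrial membrane carries the respiratory chain. Complex I takes electrons from NADH, complex III passes them to cytochrome c, complex IV hands them to oxygen, and the proton gradient that results drives the ATP synthase. Most subunits are made from nuclear genes and imported, and their promoters are textbook targets of the activators NRF1, GABP (an ETS factor) and YY1, with PGC-1 family coactivators.

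Newly made messenger RNA was measured in 18 libraries of established neuroblastoma cell lines, in 9 groups of 2. Wild-type cells (IMR-32, SK-N-DZ or KELLY) were given 1 uM BRM014, an inhibitor of the chromatin remodelling ATPases SMARCA4 and SMARCA2, against DMSO as vehicle. IMR-32 cells of the SMARCA4-mAID genotype, in which SMARCA4 carries an auxin-inducible degron tag, were given 500 uM auxin against ethanol. All these cells were labelled with 500 uM 4-thiouridine (4sU) for 2 h before harvest, and 2 further KELLY libraries came from untreated, unlabelled cells. The labels used here give neither the length of exposure to BRM014 or auxin nor whether the SMARCA4-mAID cells are 1 clone. Nothing in them tells separate cultures from repeat libraries of 1 culture. The p-values thus reflect library-to-library spread, which may be technical.

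Labelled libraries held 724913 to 1740475 gene counts and unlabelled ones 4432 to 5395. The 4 BRM014 libraries of IMR-32 and SK-N-DZ had the lowest labelled totals, 724913 to 775064. SMARCA4 itself was not called in any treatment comparison, with log2 changes with BRM014 of 0.08 in KELLY, -0.26 in IMR-32 and -0.38 in SK-N-DZ and -0.35 with auxin. Its RNA does not measure its protein or activity. In SMARCA4-mAID cells it had 887 and 942 counts with auxin, against 1091 and 1379 with ethanol, and in DMSO-treated wild-type IMR-32 cells 117 and 123. Markers of Schwann, leukocyte and endothelial cells (12 genes) summed to at most 22, 3 and 3 counts in a library, while the 10 adrenergic neuroblast markers summed to 4877 to 23320 in labelled libraries. At least 8 of these 10 were detected in every labelled group. The 7 mesenchymal-type markers summed to 49 to 368 counts in labelled libraries.

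The subunit genes together took 0.245% to 0.421% of the gene counts of a labelled library. Their share was 0.254% ± 0.0126 with BRM014 and 0.276% ± 0.00206 with DMSO in IMR-32 (SD, n = 2 each, here and below). KELLY had 0.378% ± 0.000522 with BRM014 and 0.405% ± 0.0227 with DMSO, while SK-N-DZ had 0.321% ± 0.0099 with BRM014 and 0.299% ± 0.00144 with DMSO. In SMARCA4-mAID cells it was 0.295% ± 0.00566 with auxin and 0.299% ± 0.00115 with ethanol. Both BRM014 libraries were thus below both DMSO libraries in IMR-32 and KELLY and above them in SK-N-DZ, by small margins, and no test was run on these shares. ATP synthase genes made up the largest piece of the share in every labelled library. In bulk RNA, fewer cells and less RNA per cell cannot be told apart, and shares and fold changes tell only how a gene moved against the rest of its library.

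**Figure D1:**
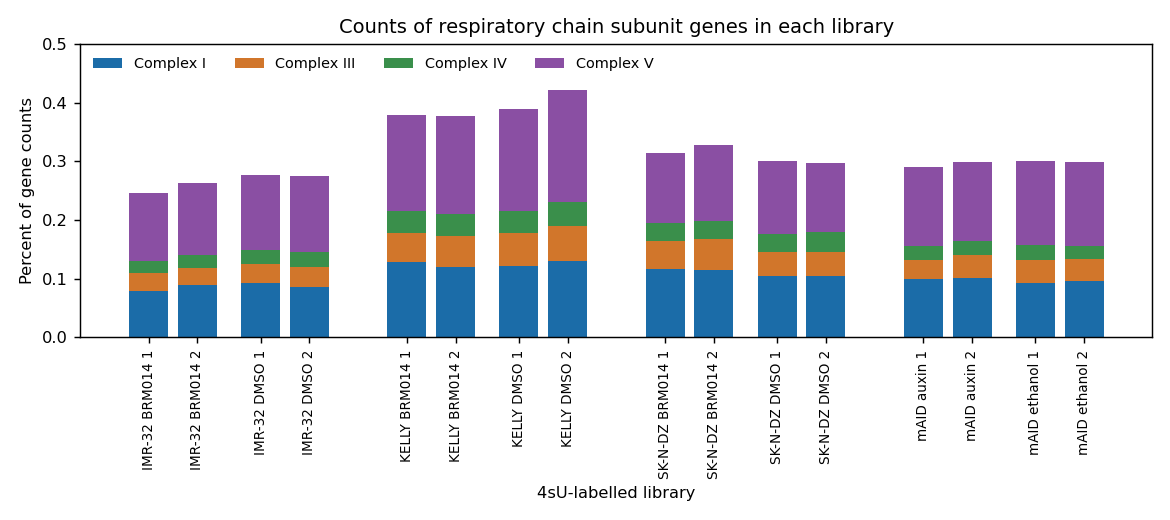
Stacked bars give the percent of each labelled library's gene counts that fell on subunit genes of complexes I, III, IV and V, with treated libraries left of their vehicle libraries in each line. Totals run from 0.245% to 0.421%, and KELLY libraries stand highest.

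Of the 84 genes, 72 passed the filter on low counts and were tested, 36 of complex I, 8 of complex III, 11 of complex IV and 17 of complex V. The 12 that did not pass never exceeded 14 counts in a library. NDUFA4L2, COX6A2, COX7B2 and COX8C had no count in any of the 18 libraries, and a count of 0 allows up to 3 counts in a library. COX4I2, COX6B2, COX7A1, UQCRHL and ATP5MGL had at most 7 counts in a library. Most of these are known as tissue or hypoxia variants, such as COX6A2 and COX7A1 in heart and skeletal muscle, COX6B2, COX7B2 and COX8C in testis, and COX4I2 in lung. UQCRHL is a near-identical copy of UQCRH, so reads of the pair may have been split in a way that the files do not show. NDUFA3, ATP5F1E and ATP5ME are ordinary subunits with short coding sequences, and had at most 7, 3 and 14 counts in a library.

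Levels were set side by side per kilobase of a median-length coding transcript, as TMM-scaled CPM (gene counts scaled to a fixed library size) per kilobase. Genes of the ATP synthase led in every labelled group. ATP5F1B, the catalytic beta subunit, was highest in 6 of the 8 groups, with 164 and 209 in IMR-32 with BRM014 and 237 and 213 with DMSO, and ATP5PB, a stalk subunit, was highest in both KELLY groups, with 236 and 265 with BRM014 and 317 and 301 with DMSO. In KELLY the libraries of ATP5PB lay above those of ATP5F1B in both groups, while in IMR-32 with BRM014 ATP5F1B, ATP5MC2 and ATP5PB overlapped. That order rests on the transcript chosen, of 678 bases for ATP5PB and 1839 for ATP5F1B. Before division by length it was reversed in KELLY. There ATP5PB had 160 and 180 CPM with BRM014 and 215 and 204 with DMSO. ATP5F1B had 380 and 403 CPM with BRM014 and 435 and 433 with DMSO. Among the last 3 of each group were mostly accessory complex I genes such as NDUFA11, NDUFA13, NDUFA6 and NDUFA1, at group means of 0.96 to 6.31, with the complex V gene ATP5F1D at 6.19 in KELLY with DMSO as an exception. NDUFS7, which carries an iron-sulfur cluster, was last in IMR-32 with BRM014, at 1.41 and 0. The place of NDUFA11 also rests on length, as it was divided by 2154 bases. In KELLY with DMSO its mean was 13 CPM, against 4.7 for NDUFA13 and 8.02 for NDUFA1. Mean counts of the 84 genes rose with the number of T in the transcript (Spearman's rho 0.41) and with its length (0.29). The T share was 17.0% for NDUFS7 and 15.9% for NDUFA13, but 25.1% for NDUFA6, beside a median of 24.4%. Levels were not corrected for T content, and its part in their order was not tested.

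The tested subunit genes are short and thinly covered, with a median transcript of 698.5 bases over the 84 genes, against 2342 for all tested genes, and a median of 34.3 counts per labelled library, against 46.9. The median standard error (SE) of a log2 change with BRM014 in IMR-32 was 0.49 for them and 0.40 over all tested genes. For 18 of the 72 genes in IMR-32, 30 in KELLY, 26 in SK-N-DZ and 28 with auxin, the 95% interval of the change lay wholly inside a 2-fold change either way. For the others the interval reached past a 2-fold change in at least 1 direction.

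Few subunit genes changed with BRM014. By edgeR's quasi-likelihood test with Benjamini-Hochberg adjustment over all 12853 tested genes, 2 fell and 1 rose in IMR-32, where 12.8% of all tested genes were called at an adjusted p below 0.05 (6.57% lower, 6.26% higher). In KELLY, where 11.6% of all tested genes were called (4.98% lower, 6.57% higher), 1 fell and none rose. In SK-N-DZ, where 19.4% of all tested genes were called (9.55% lower, 9.88% higher), 1 fell and 3 rose. The shares of the subunit genes called were thus 4.17%, 1.39% and 5.56%, each below its background. None was called with auxin, by edgeR or by DESeq2, where 2.19% of all tested genes were called (1.16% lower, 1.03% higher). At an unadjusted p below 0.05 were 12 of the 72 genes in IMR-32 (16.7%, against 24.9% of all tested genes), 6 in KELLY (8.33%, against 23.3%), 8 in SK-N-DZ (11.1%, against 30.7%) and 2 with auxin (2.78%, against 11.8%). The treated libraries lay wholly above or below the vehicle libraries for 43.1% of the 72 genes in IMR-32, where 50.8% of all tested genes did, for 50.0% in KELLY (50.8% of all), for 43.1% in SK-N-DZ (56.3% of all) and for 36.1% with auxin (42.2% of all). The median log2 change of the 72 genes was -0.15 for IMR-32 (-0.02 over all tested genes), -0.04 for KELLY (0.00), 0.06 for SK-N-DZ (-0.04) and 0.00 for auxin (0.00). Leaving out 1 library in turn moved these medians to between -0.25 and -0.12 for IMR-32, -0.11 and 0.04 for KELLY, -0.09 (without BRM014 replicate 2) and 0.12 for SK-N-DZ, and -0.17 and 0.01 for auxin, so only the median of IMR-32 kept its sign.

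**Figure D2:**
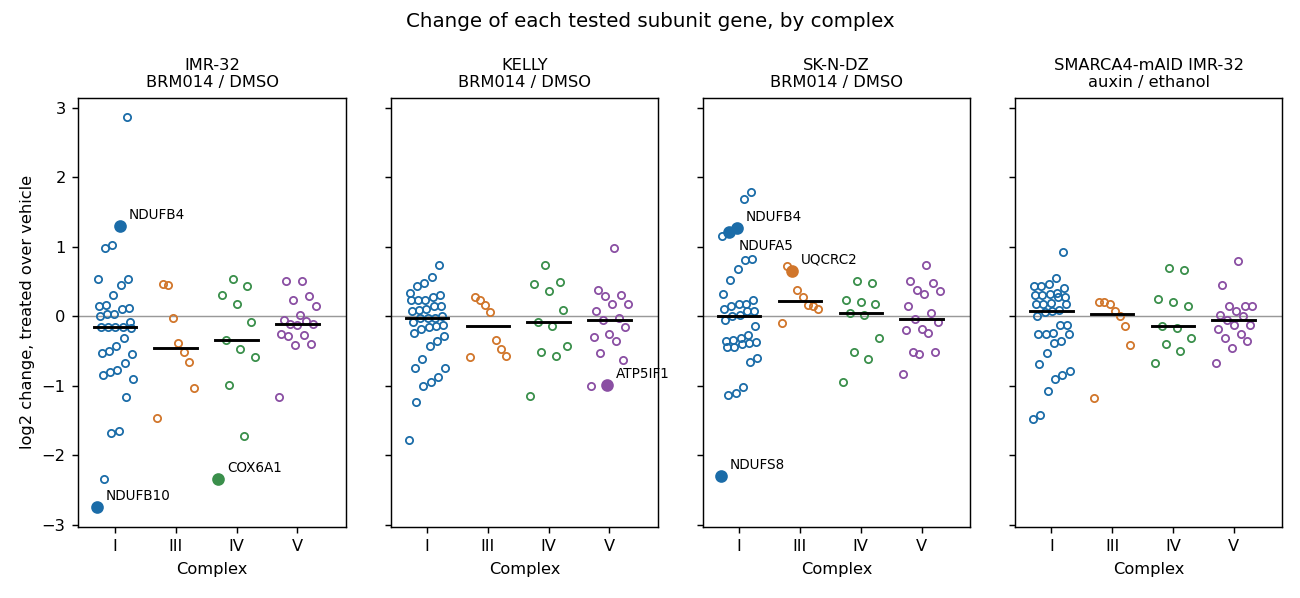
Each point is the log2 change of 1 tested subunit gene, treated over vehicle, by complex, in 4 comparisons. Filled and named points passed an adjusted p of 0.05, and black lines are medians, which lie between -0.45 and 0.21.

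Called shares depend on depth, so they were also set beside genes of like count. Among genes with a mean above 100 counts per labelled library, 0 of 12 subunit genes were called in IMR-32, where 25.6% of all tested genes of that depth were, 0 of 12 in KELLY, where 21.9% were, and 2 of 12 in SK-N-DZ, where 35.8% were. With 30 to 100 counts, 2, 1 and 1 of 30 subunit genes were called in the same order of lines, beside 11.7%, 10.7% and 18.8% of all tested genes. With 10 to 30 counts, 1, 0 and 1 of 23 were called, beside 5.83%, 5.47% and 9.76%. These shares come from few genes and carry no test. Across all tested genes with a known transcript, log2 changes rose with the share of T in the transcript, with Spearman's rho of 0.28 (IMR-32), 0.29 (KELLY), 0.40 (SK-N-DZ) and 0.16 (auxin). The median T share was 24.4% for the subunit genes and 24.4% for all tested genes, and the part of T content in the results was not tested beyond the correction named beside single genes.

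**Figure D3:**
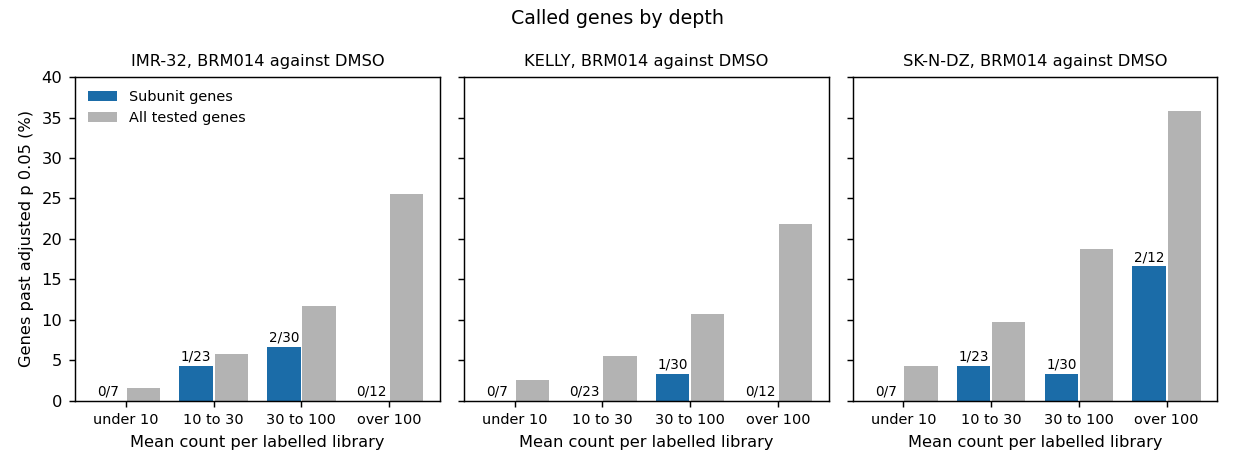
Bars give the percent of genes past an adjusted p of 0.05 with BRM014 against DMSO, by mean count per labelled library, for subunit genes (left bar, with the count called over the count tested) and all tested genes (right bar). Above 100 counts, 2 of 12 subunit genes were called in SK-N-DZ and none in the other lines.

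NDUFB4, an accessory subunit of the membrane arm of complex I (chr3:120596309-120602500, plus strand, GENCODE v29 on GRCh38), rose in IMR-32 and SK-N-DZ. It had 85.5 and 73.0 CPM with BRM014 and 34.6 and 29.3 CPM with DMSO in IMR-32, and 105 and 53.0 CPM with BRM014 and 32.9 and 32.5 CPM with DMSO in SK-N-DZ. Every BRM014 library of both lines lay above every DMSO library of its line. The log2 changes were 1.30 (SE 0.32, adjusted p = 0.00228, edgeR) in IMR-32 and 1.27 (SE 0.31, adjusted p = 0.00107) in SK-N-DZ, which is 2.47-fold and 2.40-fold. In KELLY the values were 75.1 and 60.2 CPM with BRM014 and 64.2 and 50.2 CPM with DMSO and overlapped (log2 0.24, 95% interval -0.32 to 0.79). The difference between SK-N-DZ and KELLY, 1.03, did not pass (adjusted p = 0.18, edgeR), nor did that between KELLY and IMR-32, -1.07 (adjusted p = 0.195). With auxin NDUFB4 had 45.6 and 55.4 CPM, against 51.7 and 37.7 CPM with ethanol. Without BRM014 replicate 1, the higher of the pair in both lines, both calls were lost, with a log2 change of 1.15 in IMR-32 (adjusted p = 0.0529) and of 0.69 in SK-N-DZ (adjusted p = 0.277), so the size in SK-N-DZ rests in large part on that library.

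NDUFA5, an accessory subunit of the peripheral arm (chr7:123536997-123558255, minus strand), rose in SK-N-DZ. It had 94.4 and 74.5 CPM with BRM014 and 28.7 and 43.5 CPM with DMSO there, with no overlap (log2 1.21, SE 0.27, adjusted p = 0.000274, edgeR). With the correction for transcript length and T content the change was 0.86 and stayed called (adjusted p = 0.0148, edgeR). NDUFA5 had the highest T share of the subunit genes, 32.5%. In KELLY it had 108 and 104 CPM with BRM014 and 104 and 93.6 CPM with DMSO, and in IMR-32 75.1 and 107 CPM with BRM014 and 90.4 and 74.1 CPM with DMSO. Neither line separated the groups, and SK-N-DZ DMSO libraries were the lowest of all labelled libraries for this gene. The log2 effect in SK-N-DZ exceeded that in KELLY by 1.12 (SE 0.35, adjusted p = 0.047, edgeR). That call was lost without 6 of the 8 libraries in turn. It was also lost without a filter on low counts and with the correction for length and T content. The differences ran from 0.90 to 1.46 over all alternatives. The effect in SK-N-DZ was larger than that in IMR-32 by 1.07, which did not pass (adjusted p = 0.105, edgeR). With auxin NDUFA5 had 71.8 and 88.9 CPM, against 55.8 and 54.1 CPM with ethanol, which did not pass (log2 0.55, adjusted p = 0.316, edgeR).

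NDUFB10, another membrane-arm subunit, fell in IMR-32, where it had 4.42 and 1.40 CPM with BRM014 and 25.7 and 13.7 CPM with DMSO. The BRM014 values rest on 3 and 1 counts, so the log2 change of -2.75 has a 95% interval of -4.45 to -1.04 (adjusted p = 0.0208, edgeR), and the call was lost after correction for transcript length and T content (log2 -2.26, adjusted p = 0.0824) and without BRM014 replicate 2 (log2 -2.19) or DMSO replicate 1 (log2 -2.22). In KELLY NDUFB10 was at 11.8 and 12.8 CPM with BRM014 and 10.2 and 6.08 CPM with DMSO. There both BRM014 libraries lay above both DMSO libraries, without a call (log2 0.57, adjusted p = 0.677).

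NDUFS8, which binds iron-sulfur clusters in the peripheral arm, fell in SK-N-DZ. It had 7.98 and 3.79 CPM with BRM014 and 19.8 and 38.6 CPM with DMSO, with no overlap (log2 -2.30, SE 0.76, adjusted p = 0.022, edgeR). The DMSO libraries of SK-N-DZ stood above those of the other lines for this gene. Both BRM014 libraries also lay below both DMSO libraries in IMR-32, at 0 and 4.21 against 4.41 and 10.1 CPM, and in KELLY, at 5.23 and 5.76 against 6 and 12.9 CPM, without a call. Averaged over the 3 lines the change was -1.58 (adjusted p = 0.0101, edgeR). That call was lost with the correction for length and T content (log2 -1.02, adjusted p = 0.138) and without IMR-32 DMSO replicate 2 or SK-N-DZ DMSO replicate 2, and the value ran between -3.11 and -1.02 over the alternatives. With the same correction the value in SK-N-DZ was -1.53 and no longer passed (adjusted p = 0.187), and the call was also lost without BRM014 replicate 2 or DMSO replicate 2 of that line.

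Of the catalytic and best covered complex I genes, NDUFS1, the largest iron-sulfur subunit, had 78.1 and 89.9 CPM with BRM014 and 80.1 and 88.8 CPM with DMSO in IMR-32. Its log2 changes were 0.00 (IMR-32), 0.14 (KELLY), 0.14 (SK-N-DZ) and 0.00 (auxin), and all 4 intervals lay within -0.48 and 0.59. NDUFV1, which binds NADH, had 5.89 and 4.21 CPM with BRM014 and 14.7 and 17.4 CPM with DMSO in IMR-32. Both BRM014 libraries were below both DMSO libraries, but the change missed the threshold (log2 -1.65, SE 0.64, adjusted p = 0.0732, edgeR). NDUFA4, named after complex I and now placed in complex IV, is counted here under complex I by its symbol, as is NDUFA4L2. NDUFA4 had log2 changes of -0.81, -0.18 and -0.27 in the 3 lines and passed in none.

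In complex III, 1 of 8 tested genes (12.5%) was called in SK-N-DZ, below the 19.4% of all tested genes. Of the 8 log2 changes there 7 were above 0, with a median of 0.21, against 5923 of 12853 and a median of -0.04 over all tested genes. For 5 of the 8, both BRM014 libraries lay above both DMSO libraries, against 25.7% of all tested genes. The call was UQCRC2, a core protein, with 77.1 and 101 CPM with BRM014 and 63.5 and 50.1 CPM with DMSO (log2 0.65, SE 0.24, adjusted p = 0.0457, edgeR). The call was lost under 4 of the 7 alternative settings, at log2 changes of 0.54 to 0.68, and without SK-N-DZ BRM014 replicate 2 (log2 0.44, adjusted p = 0.385) or DMSO replicate 2 (log2 0.49, adjusted p = 0.333). In IMR-32 the complex III median was -0.45 with 2 of 8 above 0, and in KELLY -0.14 with 4 of 8 above 0, with no call in either. The medians of 0.21 and -0.45 are the ends of the range over all complexes and comparisons. Counts of signs and of libraries are given for complex III alone, and they were not tested. UQCRC1, the other core protein, had log2 changes of 0.11 in SK-N-DZ, -0.52 in IMR-32 and -0.59 in KELLY and passed in none.

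UQCRFS1, the Rieske iron-sulfur protein, moved in opposite directions in IMR-32 and KELLY. It had 137 and 136 CPM with BRM014 and 94.1 and 105 CPM with DMSO in IMR-32, and 126 and 85.2 CPM with BRM014 and 139 and 153 CPM with DMSO in KELLY. The groups did not overlap in either line, and BRM014 was the higher in IMR-32 and the lower in KELLY. Neither change passed alone in the main model (log2 0.46, adjusted p = 0.152, and log2 -0.47, adjusted p = 0.104, edgeR). With the correction for length and T content the change in KELLY was called lower. The effect in KELLY minus that in IMR-32 was -0.92 (SE 0.28, adjusted p = 0.0495), in a test where 3.28% of all genes were called (1.21% lower, 2.08% higher). No other subunit gene was called in it. The call was lost without 7 of the 8 libraries in turn, with differences of -1.23 to -0.67 and adjusted p up to 0.314.

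**Figure D4:**
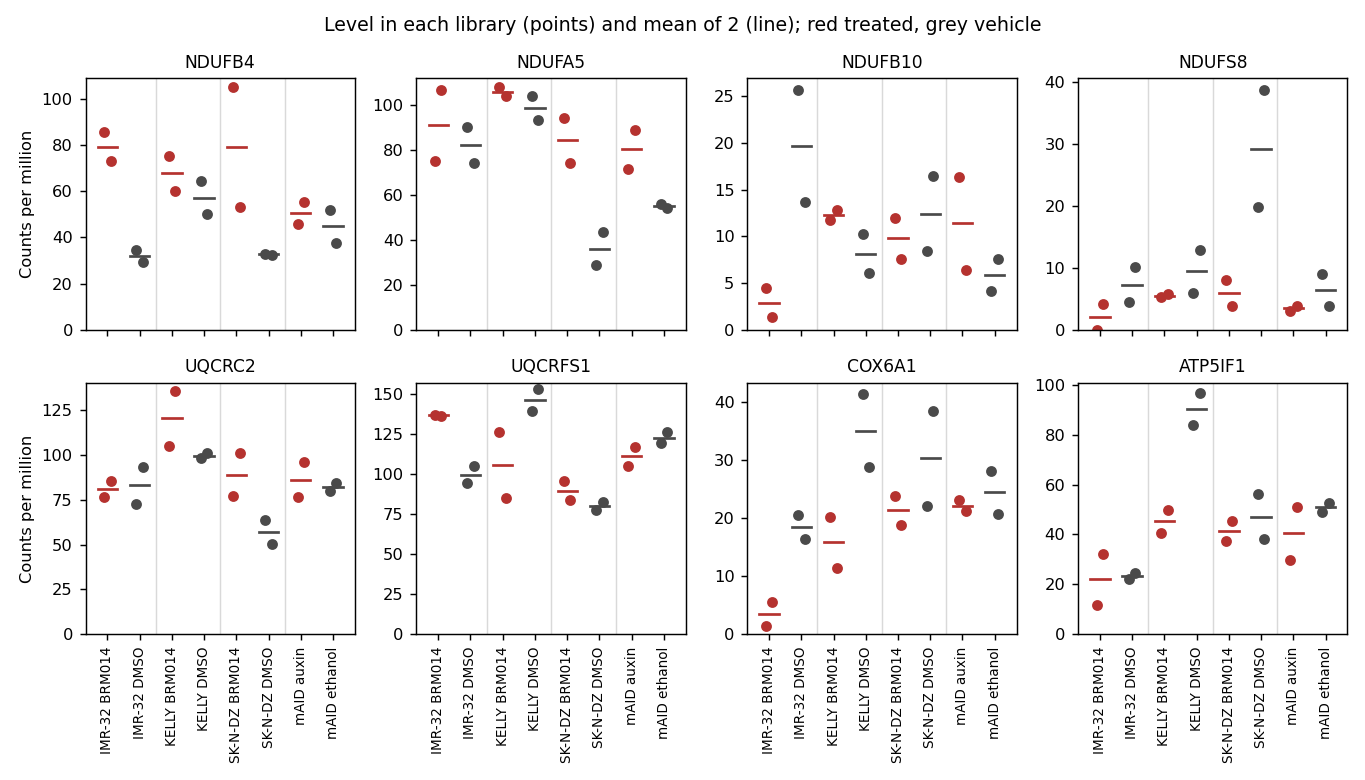
Points are the CPM of 8 subunit genes in each labelled library and lines the mean of 2, with treated groups (red) left of their vehicle (grey) in each line. COX6A1 and NDUFB10 are lowest with BRM014 in IMR-32, NDUFS8 is highest with DMSO in SK-N-DZ, and ATP5IF1 is highest with DMSO in KELLY.

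COX6A1, the widely expressed form of a small subunit of complex IV (chr12:120438090-120440742, plus strand), fell in IMR-32. It had 1.47 and 5.62 CPM with BRM014, from 1 and 4 counts, and 20.6 and 16.5 CPM with DMSO, from 28 and 18 (log2 -2.35, SE 0.69, adjusted p = 0.013, edgeR). Without BRM014 replicate 1 or DMSO replicate 1 that call was lost (largest adjusted p = 0.196). In KELLY it had 20.3 and 11.5 CPM with BRM014 and 41.4 and 28.9 CPM with DMSO, again with no overlap, and missed the threshold (log2 -1.15, adjusted p = 0.073). In SK-N-DZ the values were 23.9 and 18.9 CPM with BRM014 and 22.2 and 38.6 CPM with DMSO and overlapped. With auxin it had 23.2 and 21.2 CPM, against 28.2 and 20.8 CPM with ethanol. The mean over the 3 lines was -1.33 (SE 0.31, adjusted p = 0.00042, edgeR), and it stayed called when any single library was left out.

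No other complex IV gene was called in a treatment comparison. The log2 changes of COX4I1, COX5A, COX6B1, COX7A2, COX7A2L and COX8A with BRM014 ran between -1.73 (COX6B1) and 0.43 (COX4I1) in IMR-32, between -0.57 (COX6B1) and 0.73 (COX5A) in KELLY, and between -0.95 (COX6B1) and 0.48 (COX8A) in SK-N-DZ. COX6B1 had 2.95 and 2.81 CPM with BRM014 and 10.3 and 9.15 CPM with DMSO in IMR-32, without overlap and without a call (adjusted p = 0.278, edgeR). COX4I1 overlaps EMC8 on the other strand, and as the strand setting of the counting is unknown here, its reads cannot be told from those of EMC8. The same limit holds for other subunit genes, among them ATP5F1A (with HAUS1), ATP5PB (WDR77), NDUFS1 (EEF1B2) and NDUFV1 (C11orf72).

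ATP5IF1, the inhibitor that blocks the ATP synthase from running backwards (chr1:28236109-28246906, plus strand), fell in KELLY. It had 40.5 and 49.9 CPM with BRM014 and 83.9 and 96.6 CPM with DMSO there. The DMSO libraries of KELLY were the highest of all labelled libraries for this gene, and no BRM014 library of KELLY reached them. The log2 change was -0.99 (SE 0.30, adjusted p = 0.0164, edgeR), which is 0.503-fold. In IMR-32 it was -0.07 and in SK-N-DZ -0.18, with overlapping libraries, but the differences from KELLY did not pass (adjusted p = 0.444 and 0.426). Without KELLY BRM014 replicate 1 or KELLY DMSO replicate 2 the call in KELLY was lost, and the largest adjusted p without a library was 0.18.

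Of the alpha, beta and gamma chains of the ATP synthase, ATP5F1A and ATP5F1B moved little with BRM014. Their SEs were the smallest among the tested subunit genes in each line. ATP5F1A, the alpha subunit, had 242 and 237 CPM with BRM014 and 251 and 272 CPM with DMSO in IMR-32. In KELLY it had 430 and 405 CPM with BRM014 and 324 and 418 CPM with DMSO, and in SK-N-DZ 202 and 208 CPM with BRM014 and 216 and 183 CPM with DMSO. Its largest change was 0.18 in KELLY (95% interval -0.07 to 0.42), and none passed. ATP5F1B had log2 changes of -0.27 in IMR-32 (95% interval -0.51 to -0.03, adjusted p = 0.144, edgeR), -0.15 in KELLY and -0.09 in SK-N-DZ. In IMR-32 and KELLY both of its BRM014 libraries lay below both DMSO libraries, without a call. ATP5F1C, the gamma subunit of the rotor, had log2 changes of 0.29, -0.03 and 0.50 in the same order of lines and passed in none. Its change in SK-N-DZ had a 95% interval of 0.03 to 0.96, and both BRM014 libraries there lay above both DMSO libraries.

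Averaged over the 3 lines, where 30.2% of all tested genes were called (15.3% lower, 14.8% higher), 3 subunit genes fell and 4 rose. Those lower were COX6A1, NDUFS8 and ATP5MC1, and those higher included NDUFB4 (log2 0.93, SE 0.18, adjusted p = 9.89e-06, edgeR), NDUFA5 and ATP5MC2. ATP5MC1, ATP5MC2 and ATP5MC3 encode the same mature c subunit of the rotor ring. ATP5MC1 had a mean change of -0.52 (SE 0.21, adjusted p = 0.0479), ATP5MC2 of 0.33 (SE 0.12, adjusted p = 0.0288) and ATP5MC3 of -0.15 (SE 0.12, adjusted p = 0.387), and the difference between these genes was not tested. ATP5MC1 had 43.1 and 53.1 CPM with BRM014 and 86.3 and 61.6 CPM with DMSO in KELLY. In SK-N-DZ it overlapped, at 9.3 and 31.6 CPM with BRM014 and 26.4 and 33.6 CPM with DMSO. ATP5MC2 had 136 and 122 CPM with BRM014 and 86.0 and 97.0 CPM with DMSO in IMR-32. In KELLY it overlapped, at 138 and 94.1 CPM with BRM014 and 100 and 106 CPM with DMSO. In the remaining line of each gene the libraries did not overlap. Neither gene was called in a single line. The call of ATP5MC1 was lost without 7 of the 12 libraries in turn and under 2 of the 7 other settings (log2 -0.91 to -0.32, adjusted p up to 0.296), and that of ATP5MC2 without 6 of the 12 and under 2 of the 7 (log2 0.22 to 0.41, adjusted p up to 0.209). The call of NDUFA5, 0.48 on average, was lost with the correction for length and T content (log2 0.23, adjusted p = 0.249) and without IMR-32 BRM014 replicate 2 (log2 0.38, adjusted p = 0.0642). Upper quartile scaling gave 7 lower and 2 higher and lost the call of ATP5MC2. Without SK-N-DZ DMSO replicate 2, the count was 3.

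Across lines, 14 of the 72 genes had log2 changes below 0 in all 3 lines and 8 above 0 in all 3, or 19.4% and 11.1%, against 24.5% and 21.9% of all tested genes. The others did not keep 1 sign over the lines. In the tests of differences between lines, NDUFA5 was the single subunit gene called between SK-N-DZ and KELLY, where 3.90% of all genes were called (2.27% lower, 1.63% higher). None was called, by edgeR or DESeq2, between SK-N-DZ and IMR-32, where 2.61% of all genes were called (1.17% lower, 1.45% higher) and 9 subunit genes (12.5%) were at an unadjusted p below 0.05, against 13.6% of all genes. The effect of BRM014 minus that of auxin in IMR-32 also had no call in edgeR or DESeq2, with 1.95% of all genes called (0.887% lower, 1.06% higher), and 9 subunit genes (12.5%) at an unadjusted p below 0.05, against 12.4% of all genes. With auxin alone the smallest p among the 72 genes belonged to UQCR11, a small complex III subunit named after its values were seen, at 17.2 and 9.01 CPM with auxin and 23.4 and 35.2 CPM with ethanol (log2 -1.18, adjusted p = 0.144, edgeR).

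Promoter windows in RefSeq (GRCh38.p14), 250 bases before to 50 after each annotated start, were found for 68 of the 84 genes. A motif was counted when any window of a gene held it on either strand. The NRF1 motif (GCGCA, any base, then GCGC) was in 15 of the 68 (22.1%), against 13.7% of 9826 tested genes and 6.98% of 27305 genes with windows. The ETS motif CCGGAAG was in 19 (27.9%), against 22.7% and 12.2%, and the YY1 motif AAGATGGCG in 8 (11.8%), against 4.76% and 2.14%. The motifs do not overlap in the stretches printed here. Those stretches are the 250 bases before the start of NDUFB4, called higher in 2 lines (chr3:120596086-120596335), of COX6A1, called lower in IMR-32 (chr12:120437863-120438112), and of ATP5IF1, called lower in KELLY (chr1:28235874-28236123), all on the plus strand, with NRF1 and ETS matches in capitals.
NDUFB4: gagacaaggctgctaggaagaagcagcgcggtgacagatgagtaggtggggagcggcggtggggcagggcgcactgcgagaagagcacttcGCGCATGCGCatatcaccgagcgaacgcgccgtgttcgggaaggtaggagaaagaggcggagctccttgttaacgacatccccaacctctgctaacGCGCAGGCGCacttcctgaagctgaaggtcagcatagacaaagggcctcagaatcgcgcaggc
COX6A1: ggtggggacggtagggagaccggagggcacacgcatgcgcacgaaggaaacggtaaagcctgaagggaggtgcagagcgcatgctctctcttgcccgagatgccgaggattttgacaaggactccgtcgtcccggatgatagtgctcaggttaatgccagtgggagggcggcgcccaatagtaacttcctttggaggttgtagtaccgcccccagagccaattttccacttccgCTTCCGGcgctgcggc
ATP5IF1: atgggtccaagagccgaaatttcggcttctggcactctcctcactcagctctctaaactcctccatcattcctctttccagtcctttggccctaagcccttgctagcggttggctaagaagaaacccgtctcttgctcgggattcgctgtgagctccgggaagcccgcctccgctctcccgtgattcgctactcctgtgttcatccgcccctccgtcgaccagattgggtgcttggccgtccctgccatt
NDUFB4 holds 2 NRF1 matches and COX6A1 holds 1 ETS match on the minus strand, while ATP5IF1 holds none of the 3 motifs. NDUFA5, NDUFB10, NDUFS8 and UQCRC2 hold none of them in their windows, and UQCRFS1 holds an NRF1 match. A match is a description of letters, not of a bound site.

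Other genes of the same organelle were described by counts alone, to be read against the shares of all tested genes called lower (IMR-32 6.57%, KELLY 4.98%, SK-N-DZ 9.55%) and higher (IMR-32 6.26%, KELLY 6.57%, SK-N-DZ 9.88%). None of the 4 complex II genes, which are also part of the chain, was called in any comparison. Of CYCS, NDUFAB1 and CYC1, which the name rule does not cover, none was called in a single line or with auxin. Averaged over the 3 lines CYC1 was called lower, as were 15.3% of all tested genes. Among 44 tested assembly factors, 1 fell and 1 rose in IMR-32, 1 fell in KELLY and 1 fell and 2 rose in SK-N-DZ. With auxin 1 assembly factor fell, NDUFAF8, a complex I factor (log2 -1.74, adjusted p = 0.0307, edgeR). Of 14 genes of the tricarboxylic acid cycle, 3 fell in IMR-32 and 1 each in SK-N-DZ and KELLY, while none rose. CS, citrate synthase, fell in IMR-32 (log2 -0.80) and SK-N-DZ (-0.75). Of 76 tested mitochondrial ribosomal protein genes, 3 fell and none rose in IMR-32, 3 fell and 3 rose in KELLY, and 9 fell and 2 rose in SK-N-DZ. Their median log2 changes were -0.29, -0.28 and -0.37 in the same order of lines, against -0.02, 0.00 and -0.04 over all tested genes and -0.15, -0.04 and 0.06 for the subunit genes.

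Of 16 tested regulators of these genes, 3 fell and 1 rose in IMR-32, 3 fell and none rose in KELLY, and 2 fell and 4 rose in SK-N-DZ, while none was called with auxin. PPRC1, a PGC-1 family coactivator, fell in all 3 lines with BRM014 (log2 -0.82, -0.54 and -0.77, largest adjusted p = 0.000542, edgeR). PPARGC1A, which encodes PGC-1 alpha, fell in IMR-32 (-1.35) and KELLY (-0.94), and PPARGC1B fell in SK-N-DZ (-1.63). GABPA and GABPB1, the 2 chains of GABP, rose in SK-N-DZ (0.87 and 0.70). GABPA overlaps ATP5PF on the other strand, and their reads cannot be told apart without the strand setting. CREB1 rose in IMR-32 (0.38) and SK-N-DZ (0.84). MYCN, the amplified driver gene of many neuroblastomas, fell in IMR-32 (-0.45) and KELLY (-0.52) and rose in SK-N-DZ (0.44), and it was also called in the tests of SK-N-DZ minus KELLY and SK-N-DZ minus IMR-32. Whether these changes bear on the subunit genes was not tested.

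The unlabelled KELLY libraries give counts that arose without 4sU. Subunit genes had 17 and 13 counts there, against 6183 and 5201 in labelled DMSO libraries, so the unlabelled counts came to 0.264% of the labelled ones (95% exact binomial interval 0.178 to 0.376), against 0.348% for all genes. These are ratios of raw counts, not scaled to the number of reads sequenced, which was not known here. They and all floors and intervals of counts cover counting error only. By complex the ratio was 0.538% for complex I (0.323 to 0.841), 0.122% for III, 0.184% for IV and 0.136% for V (0.0548 to 0.281). Only 17 of the 84 genes had any unlabelled count. NDUFV3, a small complex I subunit, had 1 and 5 counts unlabelled and 51 and 30 labelled. NDUFB1, also of complex I, had 5 and 0 unlabelled and 21 and 9 labelled. Thus 11 of the 30 unlabelled counts fell on these 2 genes. Complex I had 9 and 10 unlabelled counts in all, so its ratio rests in large part on NDUFV3 and NDUFB1.

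**Figure D5:**
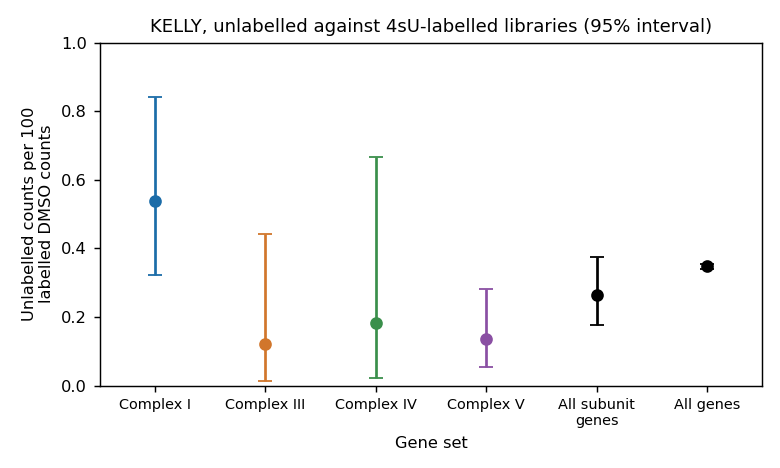
Points give unlabelled KELLY counts per 100 labelled KELLY DMSO counts, summed over 2 libraries each, with exact 95% intervals, for subunit genes by complex and for all genes. Complex I stands at 0.538 and complex V at 0.136, beside 0.348 for all genes. The complex I value rests in large part on NDUFV3 and NDUFB1.

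Relative to the other genes of their libraries, 8 of 51 tested subunit genes were lower and 1, NDUFV3, higher in unlabelled than in labelled KELLY libraries (edgeR), where 29.9% of all tested genes were called (27.8% lower, 2.08% higher). Scaling by total count gave 0 lower and 2 higher, and a model with the replicate number gave none, so at 4432 to 5395 counts per library this comparison gives no stable list. NDUFV3 had an adjusted p of 0.0243. Unlabelled counts came to 7.41% of the labelled counts for NDUFV3 (95% exact interval 2.64 to 16.8) and 16.7% for NDUFB1 (5.05 to 43.4).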

How the data were processed

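Cells had been labelled with 4sU, the RNA treated with iodoacetate and polyadenylated RNA captured, per the labels' protocols. The authors deposited whole-number counts per gene, 1 file a library. The submitters' processing notes name HISAT, HTSeq, DESeq2 and hg38 without versions or roles. The files are named as conversion counts. No source used here gives the annotation, the strand setting or the rule by which a read was counted. Lines with counter totals were kept out of tests; reads with no feature made up 46.4% to 57.4% of labelled and 65.2% to 66.7% of unlabelled libraries.

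The 16 labelled libraries were fitted as 8 groups with edgeR 4.0.16 in R 4.3.3 (TMM scaling, filterByExpr, quasi-likelihood test, Benjamini-Hochberg adjustment over 12853 genes, calls at an adjusted p below 0.05). Unlabelled and DMSO KELLY libraries had a model of their own with 8443 genes. CPM are TMM-scaled, SE is the log2 change over the root of the F statistic, and lengths and positions come from GENCODE v29. Alternatives were other scalings, no filter, DESeq2 1.42.0, a replicate block, fits on the compared libraries alone, library-specific offsets for transcript length and T content, and leaving out each library. The script was tested on simulated data. Named genes were up to 4 called members per complex and comparison by smallest p, a fixed list of core and tissue-variant subunits, the highest and lowest levels per group, the highest unlabelled share, and genes under the filter. The members and lists were chosen with earlier results of these data known. The values of 1 called gene are not reported here.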

Additional observations from a re-analysis of the deposited data

Results flagged for a closer look

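The effect of BRM014 on NDUFA5, a complex I subunit, differed between lines by a test of the difference itself, at 1.12 on the log2 scale for SK-N-DZ minus KELLY (adjusted p = 0.047, edgeR). Both SK-N-DZ BRM014 libraries lay above both DMSO libraries, while those of KELLY overlapped. UQCRFS1, the Rieske protein of complex III, differed by -0.92 for KELLY minus IMR-32 (adjusted p = 0.0495, edgeR), with 2 of 2 BRM014 libraries lower in KELLY and 2 of 2 higher in IMR-32. Both calls depend on single libraries. That of NDUFA5 was kept in 2 of 8 fits without 1 library, and that of UQCRFS1 in 1 of 8. Both were lost without a filter on low counts, and that of NDUFA5 also with the correction for length and T content.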

How the results depend on the processing

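The log2 changes of the called genes kept their sign under the alternatives run. Median changes of the 72 genes near 0 did not: that of SK-N-DZ (0.06) was -0.09 without BRM014 replicate 2, that of KELLY (-0.04) was 0.04 without DMSO replicate 2, and that of the mean over lines (-0.06) was 0.04 with the correction for length and T content. The count of subunit genes called stayed within 1.5 times of its value under the other settings except in these cases. In KELLY it was 2 in a fit on the compared libraries alone and 2 after correction for length and T content. Without a filter it was 0 for SK-N-DZ minus KELLY, 0 for KELLY minus IMR-32 and 1 for BRM014 minus auxin, and with the correction it was 0 for SK-N-DZ minus KELLY. For unlabelled against labelled KELLY it was 2 with total count scaling and 0 with the replicate block. A like count can hide a changed list. With the correction for length and T content, UQCR11 was newly called in SK-N-DZ and UQCRFS1 in KELLY, while NDUFS8 and UQCRC2 were lost in SK-N-DZ. For the mean over lines it added ATP5F1B, COX7C, NDUFA4, NDUFC2 and NDUFV3, while NDUFA5 and NDUFS8 were lost. Leaving out each library gave 1 to 3 calls in IMR-32, 0 to 1 in KELLY, 2 to 5 in SK-N-DZ, 0 with auxin, 3 to 9 for the mean, 0 to 2 for SK-N-DZ minus KELLY, 0 to 1 for the other 3 differences and 0 to 3 for unlabelled libraries. An arm left with 1 library is assumed to vary like the other groups. Replicate numbers did not pair libraries (correlations of deviations -0.01, -0.01, 0.01 and -0.03), and with the replicate block the counts were 3, 1, 3 and 0 for the treatment comparisons and 8 for the mean. Below 10 counts a library the median SE was 1.16 in IMR-32, against 0.22 above 100 counts, so changes of thinly covered genes are poorly bounded.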
